A study of Mus musculus with 24 samples.

Results

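Oxidative phosphorylation is carried out by 5 protein complexes of the inner mitochondrial membrane, and the genes that encode their subunits were followed through freshly isolated hepatocytes of young and old male mice on a normal diet (ND) or a high-fat diet (HFD). Rows of the gene count table were taken by name: the Ndufa, Ndufb, Ndufc, Ndufs and Ndufv genes of complex I, the 4 Sdh genes of complex II, the Uqcr genes and Cyc1 of complex III, the Cox4i to Cox8 genes of complex IV, the Atp5 genes of complex V, and the mt-Nd, mt-Cytb, mt-Co and mt-Atp genes of the mitochondrial genome. Of 121 matching names, 9 that contained -ps were dropped, and 11 of the 112 rows left had a mean under 1 CPM. CPM is the unit of all levels given here unless another is named. For this limit and for means over all mice, counts were scaled by library size. For levels of groups and single mice, they were scaled by the counts of the tested genes and the TMM factors of the main test. The remaining 101 genes, of 55421 rows in the table, are the members, and all 101 passed the filter on low counts that left 13583 genes to test. Of these, 88 are nuclear genes (36 of complex I, 4 of complex II, 9 of complex III, 14 of complex IV, 17 of complex V and 8 Ndufaf genes, which encode assembly factors of complex I and share the name prefix), and 13 lie on the mitochondrial genome (7 of complex I, 1 of complex III, 3 of complex IV and 2 of complex V). Just inside the limit lay Cox7a1 and Cox6c2 at 1.07 and 1.13 CPM, and just outside it Ndufa4l2 and Ndufs6b at 0.891 and 0.844 CPM.

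RNA was sequenced from 24 mice, 6 in each of 4 groups: young mice on ND or HFD (young ND, young HFD) and old mice on either diet (old ND, old HFD). According to the labels the young mice were 6 months old and of the C57BL/6N substrain and the old mice were 24 months old and of C57BL/6J, so a difference of age cannot be told apart from one of substrain. HFD mice received a diet with 60% of its energy from fat for 9 weeks, and the livers were perfused with collagenase and the hepatocytes enriched by Percoll before polyadenylated RNA was taken. The labels place the libraries in 2 batches with 3 mice of each group in each, except old ND, which had 2 in batch 1 and 4 in batch 2. Nnt is a nuclear gene that encodes a mitochondrial protein and is defective in C57BL/6J. It had a mean of 1.97 ± 0.419 CPM on ND and 2.18 ± 0.302 CPM on HFD in young mice. In old mice the means were 1.52 ± 0.426 and 1.59 ± 0.771 CPM (SD, n = 6 each). The groups overlapped at these low levels, so this gene did not separate the substrains of the labels.

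Electrons from NADH enter at complex I and those from succinate at complex II; both pass through ubiquinone to complex III, on by cytochrome c to complex IV, and finally to oxygen. Complexes I, III and IV pump protons, and complex V (ATP synthase) uses the gradient to make ATP. Complexes I, III, IV and V each combine subunits encoded by both genomes, while complex II is encoded by nuclear genes alone. The liver depends on this machinery for fatty acid oxidation, gluconeogenesis and urea synthesis.

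Total counts ran from 9200332 to 22185069 per mouse, and every old HFD mouse lay below every mouse of the other groups. Among the 24 libraries, 2 stood apart in the members' levels. In old HFD replicate 2, the median deviation of the 88 nuclear members from their young ND mean was 1.19 log2 CPM, against -0.38 to 0.21 in the other old HFD mice, and mitochondrial members held 3.52% of its counts. In this library, the same median deviation was 0.94 log2 CPM higher for other genes with transcripts under 1000 bases than for those of 3000 bases or more, while the medians of this difference in the 4 groups were between -0.01 and 0.16. In old ND replicate 4 the nuclear median was -0.81, mitochondrial members held 27% of counts, the 8 hepatocyte markers summed to 43430 CPM (the lowest of all mice) and the 6 Kupffer cell and macrophage markers to 1128 CPM (the highest). All 8 hepatocyte markers were present in every group, with sums between 74763 and 156586 CPM in the other mice. The Kupffer and macrophage sum was 1.41 to 71.2 CPM in young ND, 12.4 to 182 in young HFD, 57.2 to 1128 in old ND and 80.1 to 597 in old HFD, and the lymphocyte sum did not pass 7.19 CPM in any mouse. The part of other cells in the results was not tested. In bulk RNA, fewer cells of a type and less RNA per cell cannot be told apart.

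**Figure D1:**
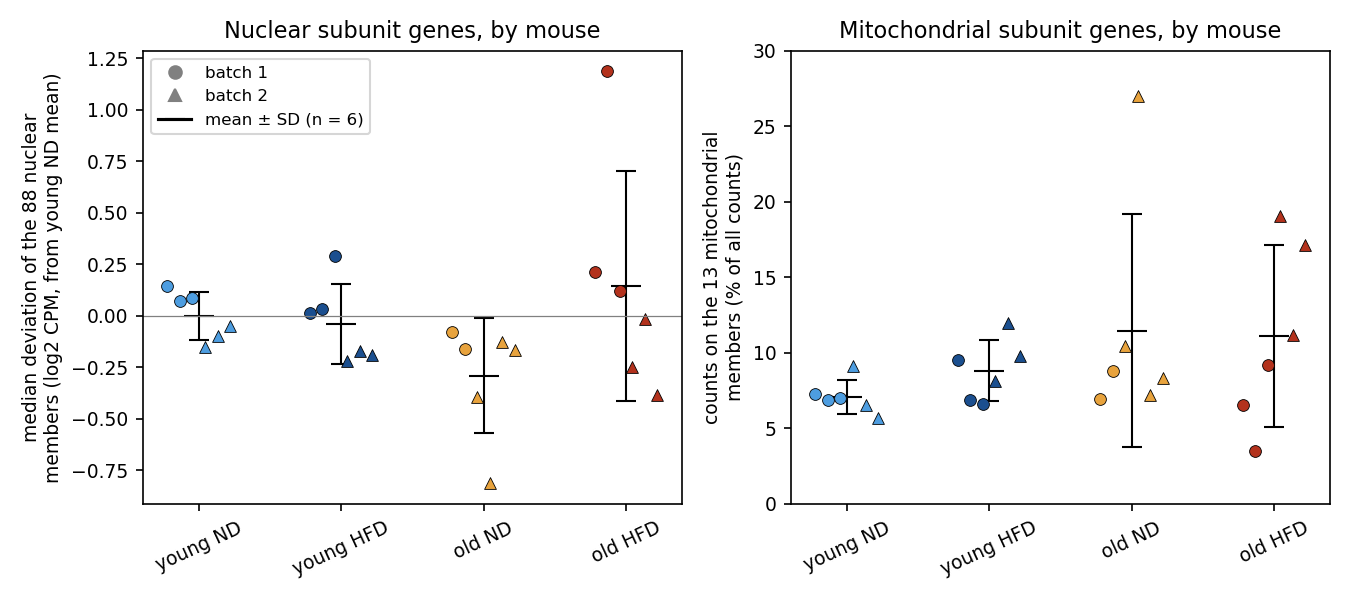
Left, the median deviation of the 88 nuclear members from the young ND mean (log2 CPM) in each mouse, and right, the share of all counts on the 13 mitochondrial members (%). Circles are batch 1, triangles batch 2, and bars mean ± SD (n = 6), and old HFD replicate 2 stands at 1.19 on the left and 3.52% on the right, and old ND replicate 4 at -0.81 and 27%.

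Scaled to length (CPM per kb of the longest coding transcript, mean of 24 mice), the nuclear members with the highest levels were Atp5b at 497, the catalytic beta subunit of ATP synthase, Cox4i1 at 448, the first nuclear subunit built into complex IV, Ndufa4 at 437, now placed in complex IV, and Atp5g3 at 420.1, a gene of the membrane c ring. Atp5a1, the alpha subunit that alternates with beta, stood at 310.3 and Atp5e, the small epsilon subunit of the central stalk, at 302. The Atp5e mean includes old HFD replicate 2 at 875 CPM, with the nearest mouse of its group at 141 CPM. Within complex I the level was highest for Ndufb9, an accessory subunit of the membrane arm, at 222. In complex II the flavoprotein Sdha stood at 166, the anchor Sdhd at 153, the iron-sulfur subunit Sdhb at 149 and the other anchor, Sdhc, at 53.3, while in complex III the hinge protein gene Uqcrh led at 259. The 8 assembly factors stood lower, between 3.69 for Ndufaf5 and 15.9 for Ndufaf1. By the mean of the authors' FPKM, which are also scaled to length, the first 2 nuclear members of each complex were Ndufb11 and Ndufa2 (71.4 and 49.4), Sdhd and Sdha (27.6 and 17.5), Uqcrq and Cyc1 (92.5 and 73.3), Cox7c and Cox4i1 (70.7 and 63.7), and Atp5b and Atp5g3 (145 and 132). Ndufa2 had a median of 41.7 FPKM and a highest mouse at 193. Ndufb10, with a mean of 48.6, had a higher median of 47.7. Together the nuclear members held 1.09% ± 0.0773 of the counts in young mice on ND and 1.10% ± 0.128 in those on HFD, and 0.883% ± 0.194 and 1.24% ± 0.579 in old mice (SD, n = 6 each), and without old HFD replicate 2 (2.36%) the old HFD mice lay between 0.788% and 1.28%.

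The comparison of old HFD with old ND asks what the diet does in aged hepatocytes. Of 88 nuclear members, 85 had a higher fitted level in old HFD than in old ND, with a median log2 fold change of 0.40 against -0.01 for all 13583 genes, and 7 rose and 0 fell at an adjusted p under 0.05. Over all genes 3.01% passed in either direction with 1.37% called higher and 1.64% lower. The 7 were Ndufa2, Ndufa3, Ndufa5, Ndufb3 and Ndufc2 of complex I, Cox7c of complex IV and Atp5k of complex V, which are all accessory subunits. None of the 13 mitochondrial members passed, and their median was 0.03 with 7 above 0, but this value rested on old ND replicate 4. Without that mouse the median was 0.66 with all 13 above 0 and 1 called, and without both mice that stood apart it was 0.75 with 2 called. limma on log2(FPKM + 1), which tested 6 of the 13, gave a median of -0.31 with 0 above 0.

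Ndufa5, a subunit of the matrix arm of complex I, had a lowest, median and highest level of 16.7, 26.3 and 29.9 CPM in old ND and 33, 44.3 and 229.9 CPM in old HFD. The 2 groups did not overlap, and the log2 fold change was 1.29 ± 0.31 (SE, adjusted p = 0.0256), or 1.82 in batch 1 and 0.71 in batch 2. The 229.9 CPM belonged to old HFD replicate 2, and without that mouse the change was 0.67 (adjusted p = 0.0043).

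Ndufb3, a small membrane-arm subunit, stood at 25.7, 30.2 and 36.8 CPM (lowest, median, highest) in old ND and at 38.0, 46.1 and 121 CPM in old HFD. Again no old HFD mouse overlapped an old ND mouse, with a change of 0.82 ± 0.19 (SE, adjusted p = 0.0231), 1.18 in batch 1 and 0.50 in batch 2, and it was 0.52 without old HFD replicate 2 (adjusted p = 0.00921). Both young groups lay at or above the old HFD minimum apart from 1 young ND mouse at 37.9 CPM, so old ND was the group that stood low.

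Ndufc2, another membrane-arm subunit, stood at 25.2, 44.3 and 47.8 CPM in old ND and at 49, 60.0 and 198 CPM in old HFD. The groups were separate here too, with a change of 0.89 ± 0.23 (SE, adjusted p = 0.0345), 1.14 in batch 1 and 0.55 in batch 2, and it was 0.50 without old HFD replicate 2 (adjusted p = 0.0296). Ndufb10 was the only other member with separate groups, at 49.3 to 82.7 CPM in old ND and 82.8 to 201 CPM in old HFD, but its change of 0.55 ± 0.17 did not pass (adjusted p = 0.0634). These 4 members of 101 compare with 0.471% of all tested genes that had every old HFD mouse above every old ND mouse.

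The other 4 called genes overlapped between the groups. Ndufa2, a thioredoxin-fold subunit of the matrix arm, had 47.2, 58.9 and 65.9 CPM in old ND and 62.8, 79.9 and 594 CPM in old HFD. Its change of 1.35 ± 0.37 (adjusted p = 0.0457) fell to 0.57 without old HFD replicate 2 (adjusted p = 0.0352). Ndufa3 had 43.8, 55.1 and 62.4 CPM in old ND and 49.4, 73.7 and 151 CPM in old HFD, a change of 0.65 ± 0.18 (adjusted p = 0.0476), and it was the only one of the 7 that lost its call without old HFD replicate 2 (adjusted p = 0.0754). Cox7c, a small transmembrane subunit of cytochrome c oxidase, had 50.7, 81.5 and 100.2 CPM in old ND and 91.0, 114 and 341 CPM in old HFD, a change of 0.76 ± 0.20 (adjusted p = 0.0345) that was 0.44 without that mouse (adjusted p = 0.0251). Atp5k, subunit e at the site where ATP synthase forms dimers, had 43.4, 57.7 and 67.1 CPM in old ND and 63.8, 82.7 and 274 CPM in old HFD, a change of 0.86 ± 0.22 (adjusted p = 0.0345) that was 0.49 without it (adjusted p = 0.0289). In each of these 4 genes the highest old HFD mouse was replicate 2, and only 1 old HFD mouse lay below the highest old ND mouse.

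**Figure D2:**
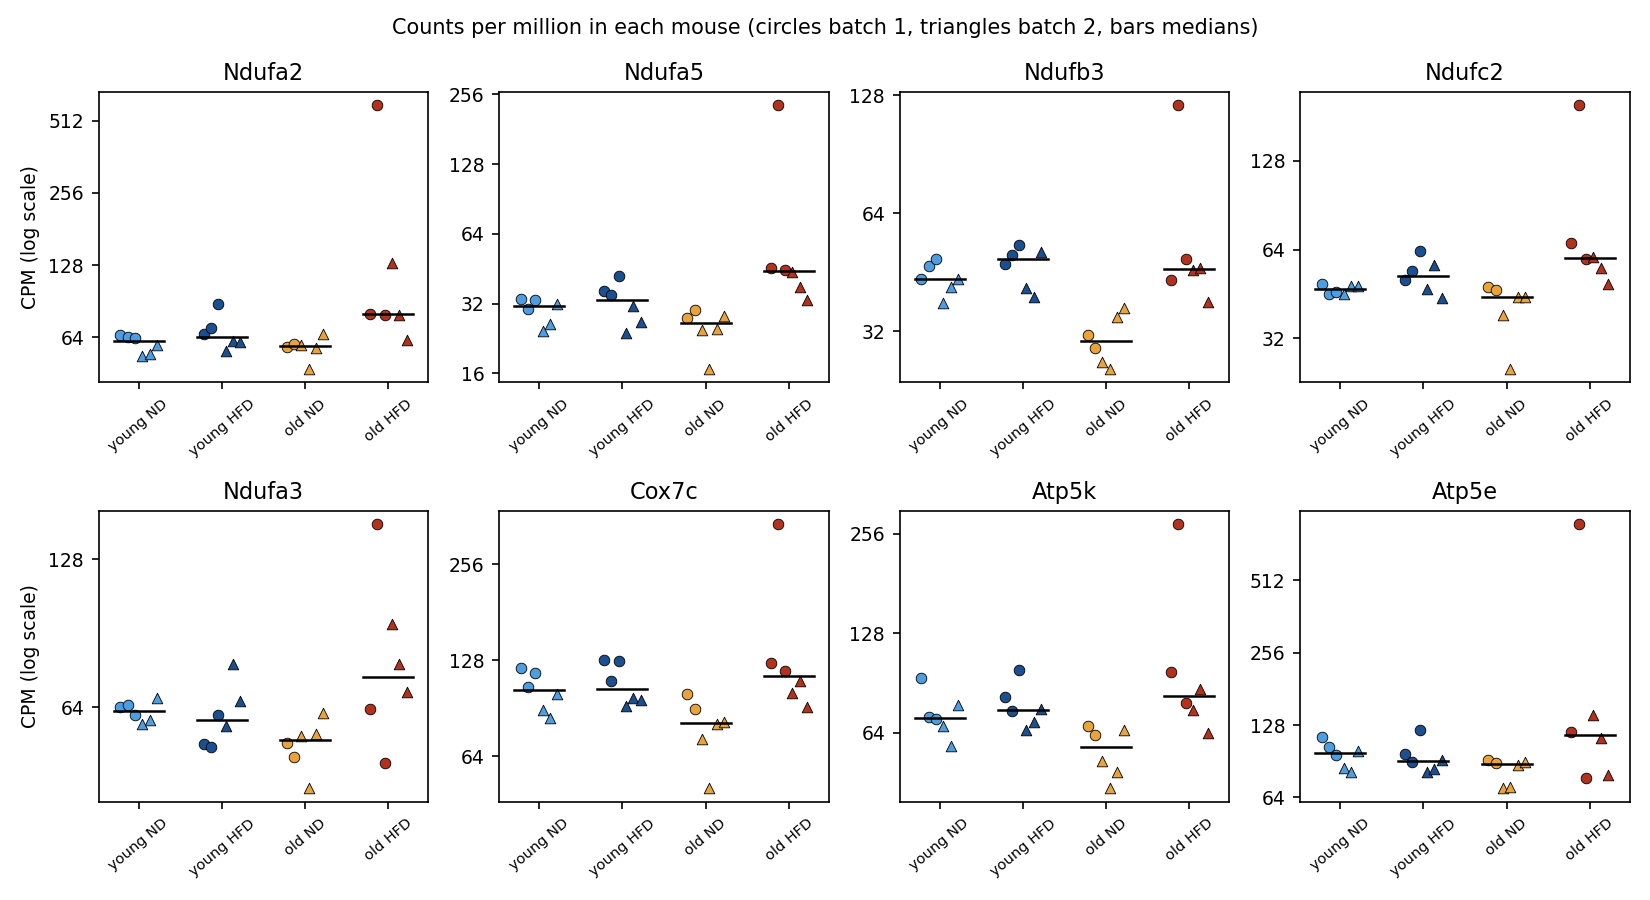
CPM on a log2 axis in each of the 24 mice for the 7 members called between old HFD and old ND and for Atp5e; circles are batch 1, triangles batch 2, bars group medians. The uppermost old HFD point in all 8 panels is replicate 2, at 229.9 CPM for Ndufa5 and 875 CPM for Atp5e, and for Ndufa5, Ndufb3 and Ndufc2 no old HFD mouse reached down to the old ND range.

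The size of the shift and the number of calls changed with single mice. Without old HFD replicate 2 the nuclear median was 0.20 and 6 of the 7 calls were kept, and without both mice that stood apart it was 0.16, with 6 kept and mt-Cytb and mt-Nd6 added. Without old ND replicate 1 or without old ND replicate 2, however, 0 of the 101 members passed. Without old ND replicate 4 the count was 3 and without old ND replicate 5 it was 4, while leaving out old HFD replicate 1, 3, 5 or 6 raised it to 17, 22, 17 and 14. The calls of Ndufa2 and Ndufa3, the nearest to the threshold, were each lost in 19 of the 24 fits that left out 1 mouse, and those of the other 5 genes in 2 to 4. It was also 0 when only the 12 old mice were fitted or within either batch (nuclear median 0.64 in batch 1, 0.17 in batch 2). DESeq2 called 25 members higher, against 4.78% of the genes to which it gave an adjusted p. Of the 7 it called 5, and it gave no p for Ndufa2 and Ndufa5, the 2 with the largest changes.

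By complex, all 36 nuclear members of complex I had a positive change (median 0.48, 5 called), as did the 14 of complex IV (0.47, 1 called), 16 of 17 of complex V (0.38, 1 called), 8 of 9 of complex III (0.31, 0 called) and all 4 of complex II (0.25, 0 called). Without old HFD replicate 2 these medians were 0.21, 0.23, 0.16, 0.16 and 0.14 in the same order, and without both mice that stood apart 0.18, 0.17, 0.09, 0.09 and 0.08. The abundant catalytic subunits overlapped widely between the groups: Atp5b had 497, 863 and 1019 CPM in old ND and 428, 1013 and 1239 CPM in old HFD, and Sdha 254, 417 and 499 CPM in old ND and 232, 499 and 608 CPM in old HFD. Sdhb, the iron-sulfur subunit of complex II, had 69.0, 134 and 163 CPM in old ND and 92.1, 181 and 453 CPM in old HFD, and its change of 0.55 ± 0.21 did not pass (adjusted p = 0.124). Cox4i1 (0.48 ± 0.20, adjusted p = 0.157) and Ndufa4 (0.57 ± 0.18, adjusted p = 0.0680) did not pass either, and without old HFD replicate 2 the changes of these 3 genes were 0.29, 0.20 and 0.35. Atp5e had the largest change of complex V, 1.25 ± 0.40, but it did not pass (adjusted p = 0.0761), and without old HFD replicate 2, which stood at 875 CPM, it was 0.35 (adjusted p = 0.189).

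Core and accessory subunits were also taken apart. The 21 nuclear core subunits, which carry the redox centers and the catalytic and rotary parts, had a median of 0.15 with 0 called, and the 59 accessory subunits a median of 0.49 with 7 called. Without old HFD replicate 2 these medians were 0.07 and 0.23, and without both mice that stood apart 0.01 and 0.18; no test between them was made, since genes are not replicates. Length was taken as the median over a gene's coding transcripts, except in levels per kb, which use the longest. Ndufs1 thus counts as 651 bases, with a longest transcript of 2661. Most accessory subunits are short, but Ndufb2 has 2413 bases, and some core subunits are short too, such as Atp5e with 421. Length moved with the change across the whole table: other genes under 750 bases had a median of 0.12 and those of 5000 bases or more -0.23. The 63 nuclear members under 1000 bases had a median of 0.48 and the 24 longer ones 0.27, and over the 87 nuclear members with a known length the Spearman correlation of length with the change was -0.42, given as a description over genes of the same libraries, against -0.27 over 11983 other genes. With both mice that stood apart left out these were -0.24 and -0.12. After a length trend had been removed in each library, the nuclear median was 0.29 and 6 members were called, all of them among the 7.

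**Figure D3:**
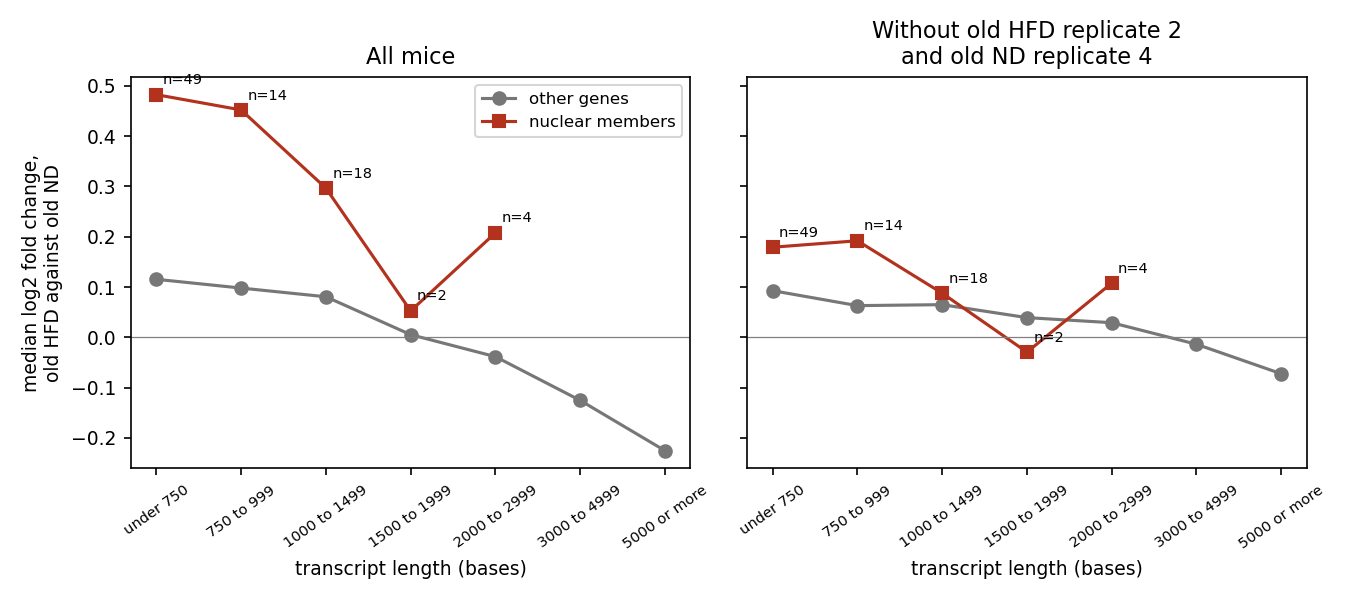
Median log2 fold change of old HFD against old ND by transcript length class (bases), for other genes (gray) and nuclear members (red, with their number), with all mice on the left and without old HFD replicate 2 and old ND replicate 4 on the right. Members under 750 bases drop from 0.48 to 0.18 between the panels, while other genes of that class go from 0.12 to 0.09.

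Old HFD against young ND spans both factors, age and diet, and of the 6 comparisons it had the most changes in the whole table: 30.2% of genes passed, 17.3% higher and 12.9% lower. Of the 101 members, 15 rose and 1 fell. Nuclear genes made up 9 of those that rose: Ndufa2, Ndufa5, Ndufa7, Ndufa13, Ndufc1 and Ndufc2 of complex I, Uqcrh of complex III, and Atp5e and Atp5l of complex V. The other 6 were mitochondrial. Marker sums differed between these groups too. From young ND to old HFD, leukocyte markers went from a median of 2.37 to 19.6 CPM and erythroid markers from 126 to 59.7 CPM. RNAs retained in the nucleus went from 409.8 to 969 CPM and dissociation response genes from 342 to 634 CPM. The part of these signs in the members' changes was not tested.

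Ndufc2 was again the member whose groups did not overlap, with 45.1, 47.0 and 48.8 CPM in young ND and 49, 60.0 and 198 CPM in old HFD, and its change was 0.74 ± 0.23 (adjusted p = 0.0173). Over all genes, 2.99% had every old HFD mouse above every young ND mouse and 4.27% below, where no member did. Ndufa5 had 24.3, 31.1 and 33.5 CPM in young ND, a change of 1.16 ± 0.30 (adjusted p = 0.00728), and Ndufa2 53.7, 61.7 and 65.8 CPM, a change of 1.40 ± 0.36 (adjusted p = 0.00662). These 3 genes kept their calls without old HFD replicate 2 (adjusted p = 0.00501 for Ndufa5, 0.00855 for Ndufa2 and 0.0452 for Ndufc2), with changes of 0.49, 0.54 and 0.33. When only the mice of these 2 groups were fitted, none of the 3 passed, and DESeq2 called Ndufc2 and gave no p for the other 2.

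The remaining 6 nuclear genes that rose lost their calls without that mouse. Atp5e had 81.9, 98.0 and 114 CPM in young ND and 77.1, 116 and 875 CPM in old HFD, and its change of 1.13 ± 0.39 (adjusted p = 0.0316) became 0.15 (adjusted p = 0.447). Atp5l, subunit g and the partner of subunit e in ATP synthase dimers, changed by 0.66 ± 0.23 with all mice (adjusted p = 0.0364) and by 0.18 without it (adjusted p = 0.154). In addition, 84.8% of the 50-base windows of Atp5l also occur in another gene, so its counts are uncertain. Ndufa13 (0.67), Ndufc1 (0.74), Ndufa7 (0.58) and Uqcrh (0.58) fell to between 0.15 and 0.23 and no longer passed. Leaving out young ND replicate 1, 2, 3 or 5 brought the count of all members called from 16 to 10, 9, 10 and 7, leaving out old HFD replicate 2 to 10, and leaving out old ND replicate 4 or old HFD replicate 3 to 27 and 29. Within batches, the nuclear median was 0.45 in batch 1, which holds old HFD replicate 2, and -0.10 in batch 2.

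Atp5g2, one of 3 nuclear genes for the same c-ring protein, was the member that fell, with 28.9, 35.8 and 37.1 CPM in young ND and 17.8, 27.4 and 34.9 CPM in old HFD. The groups overlapped, and the change was -0.36 ± 0.13 (adjusted p = 0.0364), -0.32 in batch 1 and -0.41 in batch 2. It did not pass without old HFD replicate 2 (-0.33, adjusted p = 0.0617). Core subunits as a class had a median of -0.04 here and accessory subunits 0.31, and without both mice that stood apart these were -0.18 and 0.04, with Cyc1 and Ndufv1, both catalytic core subunits, called lower.

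**Figure D4:**
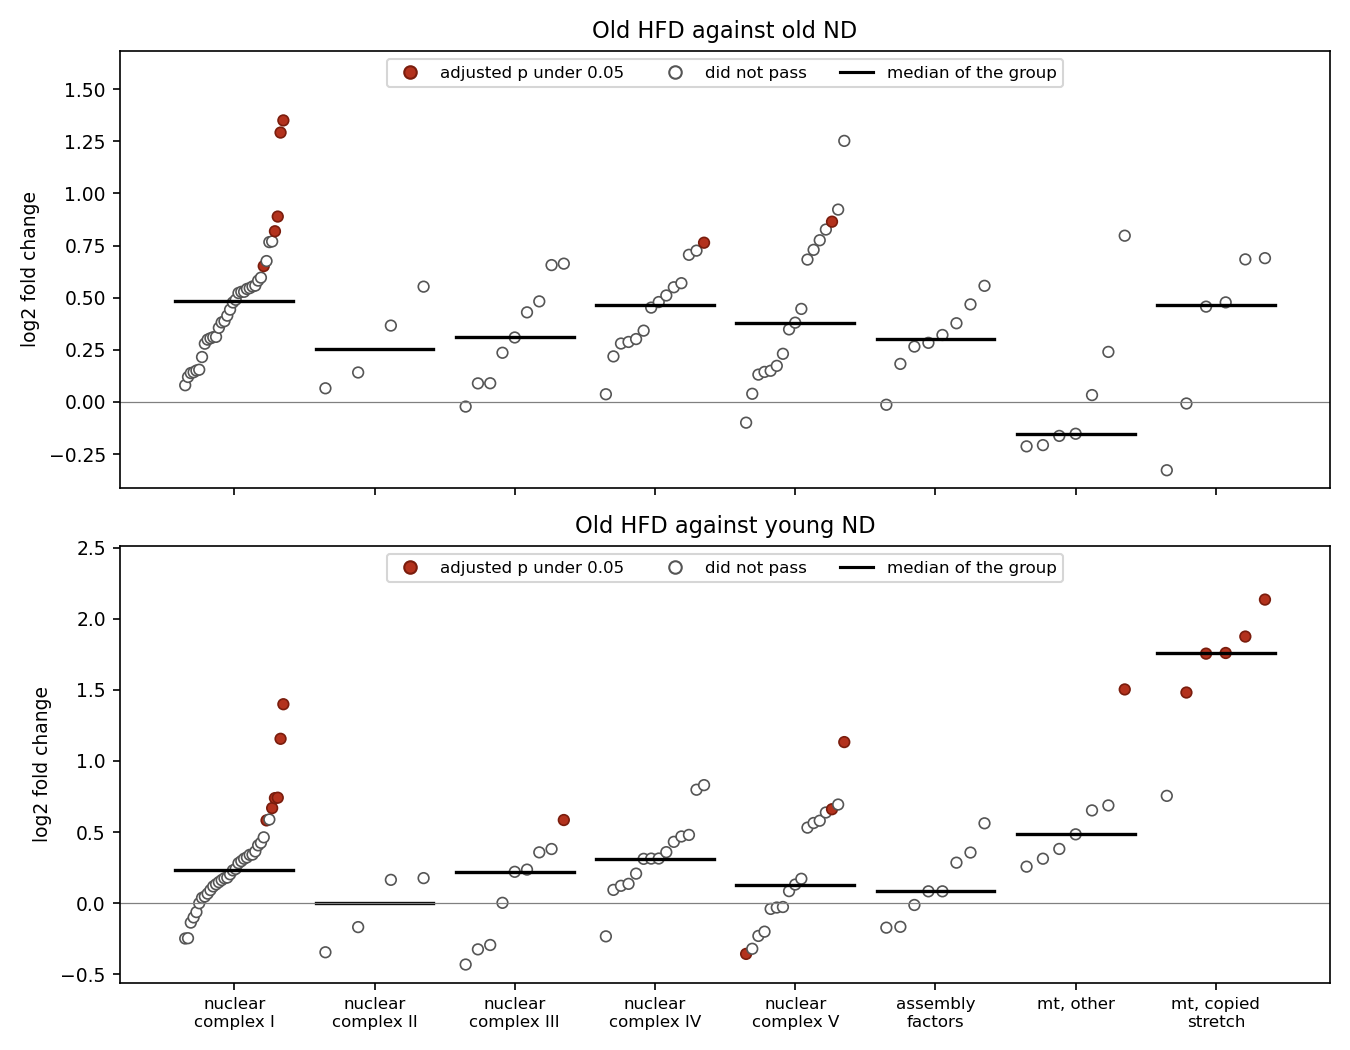
Log2 fold change of every member, sorted within its group, for old HFD against old ND (top) and old HFD against young ND (bottom). Filled points passed at an adjusted p under 0.05 (7 in the top panel, 16 in the bottom panel), open points did not, and bars are medians; the mitochondrial genes are split into the 6 from mt-Co2 to mt-Nd4l, inside or beside a stretch with a nuclear copy, and the other 7.

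Age was compared on each diet. Between old ND and young ND, 8.5% of all genes passed (7.26% higher, 1.24% lower) and 0 of 101 members. At an unadjusted p under 0.05 there were 21 members, beside 3020 of 13583 genes. DESeq2 called 5 members (Ndufaf1, Sdha, mt-Atp8, mt-Co3 and mt-Nd3), beside 9.63% of its genes, and limma on log2(FPKM + 1) called 0. The 2 genomes lay on opposite sides of 0: 82 of 88 nuclear members had a lower fitted level in old ND (median -0.21), and all 13 mitochondrial members a higher one (median 0.80; all genes 0.01). limma on the authors' FPKM, where only 6 of the 13 mitochondrial members were tested, gave a median of -0.22 for these with 1 above 0. For these 6, FPKM and counts spread differently within groups. In young ND, mt-Nd1 ran from 16136 to 370230 FPKM but only from 6255 to 11036 CPM. Replicate 3 was the highest young ND mouse by FPKM in all 6. In old ND, mt-Nd1 ranged 2.62-fold by FPKM and 4.55-fold by CPM. Other signs moved with age on ND: from young ND to old ND the summed level of 10 dissociation response genes went from 228 to 499 CPM to 392 to 1084 CPM, that of 5 stellate cell markers from 5.25 to 63.6 CPM to 72.9 to 381 CPM, and that of 5 endothelial markers from 8.80 to 99.6 CPM to 27.1 to 526 CPM. RNAs retained in the nucleus (Neat1 and Malat1 summed) had medians of 409.8 and 869 CPM in these 2 groups. All of these genes had counts in both groups. These sums moved with batch too: the endothelial mean was 14.8 and 79.6 CPM in batches 1 and 2 of young ND, and 36.3 and 220 CPM in old ND. The part of these genes and of batch in the members' changes was not tested. Without old ND replicate 4 the medians were -0.13 and 0.38, and the count was 1, 7 and 4 without old ND replicate 1, 5 or 6, was 3 without young ND replicate 1, and was 2, 5, 1 and 4 without old HFD replicate 1, 2, 3 or 4, since all 24 mice enter 1 fit. In 7 members every old ND mouse lay below every young ND mouse, which held for 1.72% of all genes (the reverse held for 2.08% and for no member): Ndufb3, Ndufb8, Ndufb9 and Ndufv1 of complex I, Cox5a of complex IV, and the assembly factors Ndufaf1 and Ndufaf4.

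Ndufaf1, a chaperone for the membrane arm of complex I, had 21.6, 26.3 and 30.5 CPM in young ND and 14.1, 19.5 and 20.6 CPM in old ND, a change of -0.45 ± 0.15 (adjusted p = 0.0608). Ndufb3 had 37.9, 43.6 and 48.9 CPM in young ND against at most 36.8 CPM in old ND, a change of -0.45 that did not pass (adjusted p = 0.143). Sdha, the flavoprotein of complex II, had 446, 560.4 and 658 CPM in young ND and 254, 417 and 499 CPM in old ND, a change of -0.41 ± 0.14 (adjusted p = 0.0767). In the first 2 of these genes the groups were separate, and in Sdha they overlapped.

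Between old HFD and young HFD, 2.24% of all genes (1.82% higher, 0.42% lower) and 0 of 101 members passed. At an unadjusted p under 0.05 there were 27 members, beside 2848 of 13583 genes. DESeq2 called Atp5h and Atp5l (5.52% of its genes), limma 0. Without old HFD replicate 3 the count was 7, and without old HFD replicate 1, 5 or 6 it was 2. No member was separate between the groups, against 0.552% of all genes higher and 0.25% lower. The nuclear median was 0.25, and it was -0.01 without old HFD replicate 2, 0.46 in batch 1 and -0.05 in batch 2. The mitochondrial median was 0.38, or 0.54 without that mouse, and it was -0.06 in batch 1 and 0.84 in batch 2. All 13 lay above 0, but in limma on log2(FPKM + 1) the median of the 6 tested was -0.27 with 0 above 0.

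With HFD in young mice the nuclear members lay on both sides of 0, with a median of -0.03 (all genes 0.01), changes from -0.41 to 0.31 and 31 of 88 above 0. The mitochondrial median was 0.52 with 12 of 13 above 0, or 0.32 in batch 1 and 0.84 in batch 2, and it was -0.10 in limma on log2(FPKM + 1), where 1 of the 6 tested lay above 0. None of the 101 passed, against 3.5% of all genes (1.91% higher, 1.59% lower), and no member was separate between the groups (1.77% of all genes higher, 3.06% lower). DESeq2 and limma called 0 members. At an unadjusted p under 0.05 there were 3 members, beside 2885 of 13583 genes. The 3 members were mt-Atp6, mt-Co3 and mt-Nd3, which all have copies in the nuclear genome. Of these, mt-Nd3 had 1.95, 3.65 and 6.43 CPM in young ND and 4.51, 9.49 and 11.3 CPM in young HFD (change 1.09 ± 0.46, adjusted p = 0.171), and mt-Co3 21, 42 and 84.1 CPM in young ND and 54.0, 80.6 and 137 CPM in young HFD (0.93 ± 0.44, adjusted p = 0.219).

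The difference between the 2 diet effects was tested as an interaction. It was called for 0 of 13583 genes and 0 of 101 members by edgeR (0.0% called). At an unadjusted p under 0.05 there were 1247 genes and 30 members, and DESeq2 called 7 genes and 0 members. With no filter on low counts, however, edgeR called 11 members, among them Ndufa2, Ndufa5 and Atp5e, beside 1.82% of all genes, so whether a difference between the diet effects passed depended on the filter. The nuclear median of the interaction was 0.46 and the mitochondrial one -0.33; without both mice that stood apart they were 0.13 and 0.30.

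The mitochondrial genome is transcribed as long polycistronic RNAs that are cut into their genes, with mt-Nd6 the only one of the 13 members on the minus strand. Its 13 members held 7.08% ± 1.14 of the counts in young mice on ND and 8.82% ± 2.03 in those on HFD, and 11.5% ± 7.71 and 11.1% ± 6.04 in old mice (SD, n = 6 each). Old ND replicate 4 at 27% set the spread of its group, whose other mice lay between 6.94% and 10.5%. In old HFD the batches were apart, at a mean of 6.40% in batch 1 and 15.8% in batch 2. RNAs retained in the nucleus (Neat1 and Malat1 summed) were highest in the 3 mice with the highest share: they stood at 3892 CPM in old ND replicate 4, and at 5742 and 2842 CPM in the 2 old HFD mice with 19.1% and 17.1%, and at no more than 1344 CPM in any other mouse. Those 3 mice also had 1128, 424 and 597 CPM of Kupffer cell and macrophage markers, while old ND replicate 3 had 708 CPM of these markers with a share of 10.5%. The part of either in the mitochondrial share was not tested.

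Levels within this genome were far from even. Per kb, mt-Co1, the catalytic subunit of complex IV, stood at 23465 CPM (mean of 24 mice), mt-Cytb at 16415, mt-Nd1 at 11669, mt-Nd2 at 11132, mt-Nd4 at 5746, mt-Nd6 at 5278 and mt-Nd5 at 4034. The 6 neighbors from mt-Co2 to mt-Nd4l stood between 29.8 and 178 CPM per kb, with mt-Nd4l and mt-Nd3 lowest at 29.8 and 31.0. Nuclear copies lie on chromosome 1 (GRCm38 chr1:24611535-24616197, minus strand), where 7 genes annotated as Gm28439, Gm10222, Gm28438, Gm28437, Gm10925, Gm28661 and Gm29216 match mt-Nd4, mt-Nd4l, mt-Nd3, mt-Co3, mt-Atp6, mt-Co2 and mt-Co1 in turn. Counted as 50-base windows that also occur in another annotated gene, 100% of mt-Co2 was shared, 99.9% of mt-Co3, 99.5% of mt-Atp6, 98.8% of mt-Nd4l, 98.0% of mt-Nd3, 62.2% of mt-Nd4 and 51.1% of mt-Co1, and 0% of mt-Nd1, mt-Nd6, mt-Cytb and mt-Atp8. mt-Atp8 has no annotated copy of its own and lies between 2 genes that have one. Reads that match both places equally well cannot be assigned to either, so levels in this stretch are uncertain.

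The closeness of the copies is shown by 60 bases at the start of mt-Nd3, with the position that differs in capitals (T3C, the mitochondrial base first, counted from 1 at the 5′ end of the gene), and by the 60 bases of mt-Co1 from position 1054, which hold the 6 differences found over the 492 bases of its copy (capitals). The other 5 copies were identical over the 294 to 876 bases compared.
mt-Nd3 (GRCm38 chrM, gene 9459-9806, plus strand): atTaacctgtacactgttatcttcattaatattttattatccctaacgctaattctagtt
Gm28438 (its copy): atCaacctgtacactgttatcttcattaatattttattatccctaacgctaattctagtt
mt-Co1 (GRCm38 chrM, gene 5328-6872, plus strand): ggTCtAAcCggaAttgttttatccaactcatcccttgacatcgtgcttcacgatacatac
Gm29216 (its copy): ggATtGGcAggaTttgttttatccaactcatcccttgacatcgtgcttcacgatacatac

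**Figure D5:**
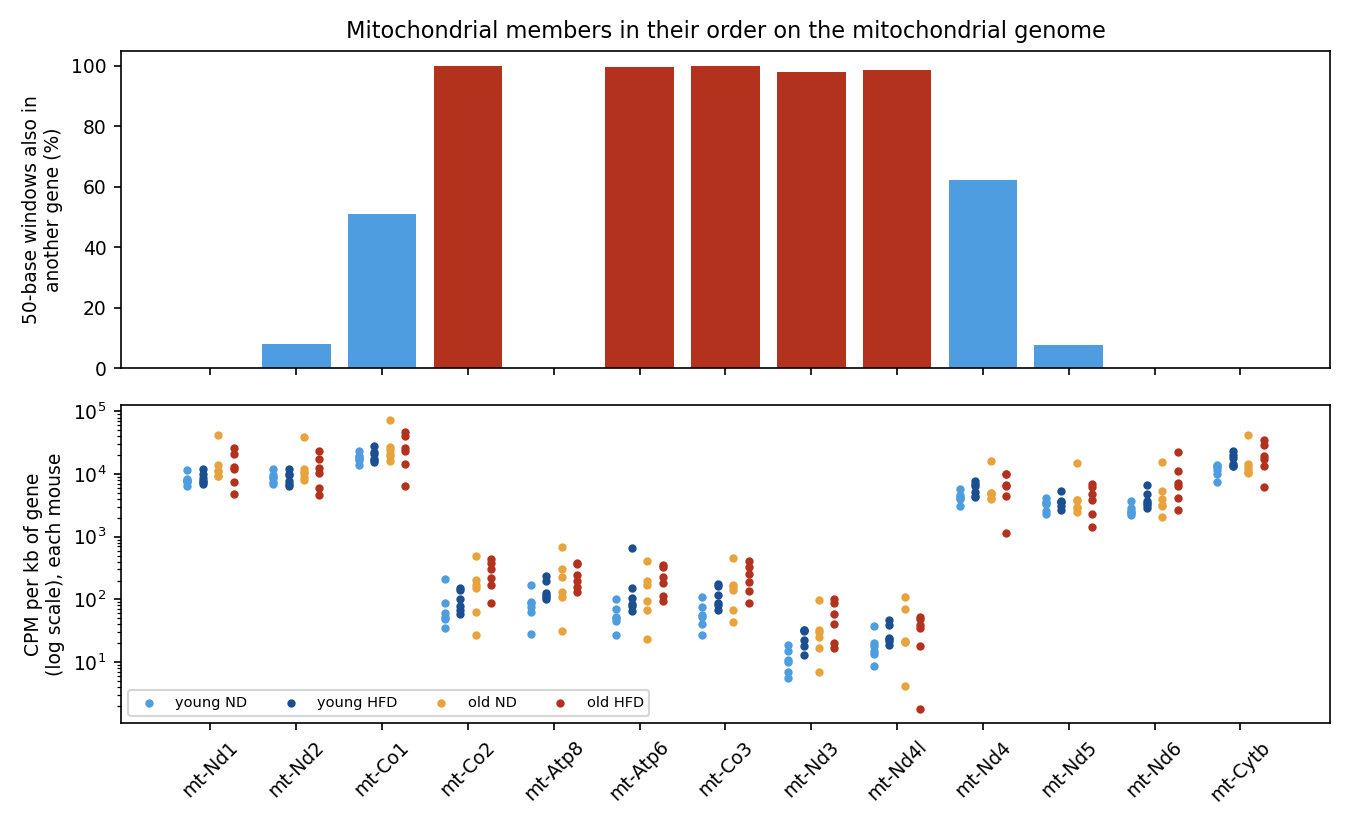
At the top, share of each mitochondrial member's 50-base windows that also occur in another annotated gene (%), in gene order; red marks mt-Co2 to mt-Nd4l, where mt-Atp8 is at 0%. Bottom, CPM per kb of gene in each mouse on a log axis, colored by group: mt-Co2 to mt-Nd4l lie below 1000 in every mouse and the other 7 genes above.

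With age and HFD together, 6 mitochondrial members rose, and 5 of them are among the 6 neighbors from mt-Co2 to mt-Nd4l. Without both mice that stood apart 11 rose, all 6 of these neighbors and 5 of the other 7 genes, beside 2587 of 13679 genes called higher. The median of the 13 was then 1.19, against 0.75 with all mice. In limma on log2(FPKM + 1) the median of the 6 tested, which are not among those that rose with all mice, was -0.38 with 0 above 0. mt-Co3 had 21, 42 and 84.1 CPM in young ND and 69.2, 171 and 317 CPM in old HFD, a change of 1.87 ± 0.45 (adjusted p = 0.0043), 1.21 in batch 1 and 2.53 in batch 2. mt-Nd3 had 1.95, 3.65 and 6.43 CPM in young ND and 5.93, 17.1 and 35.8 CPM in old HFD, a change of 2.13 ± 0.47 (adjusted p = 0.00254). In both genes only 1 old HFD mouse lay within the young ND range. mt-Co2 rose from 23.6, 38.5 and 145 CPM to 60.1, 179.6 and 307 CPM (1.76 ± 0.50, adjusted p = 0.0117) and mt-Atp6 from 18.7, 35.6 and 69.2 CPM to 63.7, 140.4 and 239 CPM (1.75 ± 0.57, adjusted p = 0.0229). mt-Atp8 rose from 5.73, 16.8 and 34.5 CPM to 26.3, 45 and 77.6 CPM (1.48 ± 0.50, adjusted p = 0.0284). Without old HFD replicate 2 the call of mt-Atp6 was lost (1.6, adjusted p = 0.0515), and the other 4 had changes between 1.49 and 1.98 and passed. mt-Atp8 lost its call in 5 of the 24 fits that left out 1 mouse (young ND replicate 4, 5 or 6, old HFD replicate 4 or 6; adjusted p up to 0.0772) and after the length trend was removed, and mt-Atp6 in 3 (young ND replicate 4 or 5, old HFD replicate 2; adjusted p up to 0.0610). The copies had higher means in old HFD too: Gm28437, the copy of mt-Co3, had a mean of 62.5 CPM in young ND and 235 CPM in old HFD, and Gm28661, the copy of mt-Co2, 53.2 and 221 CPM. Which of the 2 places these reads came from cannot be told apart here.

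mt-Nd6, which has no shared windows, also rose. It had 1167, 1315 and 1942 CPM in young ND, 1510, 1871 and 3469 CPM in young HFD, 1079, 1869 and 7988 CPM in old ND, and 1379, 3544 and 11630 CPM in old HFD. The change between the first and the last of these groups was 1.5 ± 0.37 (adjusted p = 0.00536), 0.71 in batch 1 and 2.30 in batch 2, and the groups overlapped. The 6 neighbors from mt-Co2 to mt-Nd4l, mt-Atp8 included, had a median of 1.76 here, and the other 7, among them mt-Co1 and mt-Nd4 with partial copies, 0.48. In batch 1 the median of all 13 was -0.01 and in batch 2 it was 1.53, while the nuclear medians were 0.45 and -0.10, so the genome with the higher median was not the same in the 2 batches.

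The other abundant mitochondrial messages were not called in any comparison in the edgeR fit of all 24 mice with the filter on low counts; with no filter, mt-Nd1 was called with age on ND. Without both mice that stood apart, mt-Co1 (0.68), mt-Cytb (0.97), mt-Nd1 (0.91) and mt-Nd4 (0.79) rose with age and HFD together. For old ND against young ND with all mice, mt-Nd1, the subunit at the joint of the 2 arms of complex I, had 6255, 7572 and 11036 CPM in young ND and 8881, 10733 and 40432 CPM in old ND (change 0.80 ± 0.34, adjusted p = 0.149). mt-Co1 had 21393, 28125 and 36296 CPM in young ND and 25268, 34487 and 114272 CPM in old ND (0.54 ± 0.34, adjusted p = 0.372). mt-Cytb, cytochrome b of complex III, had 8703, 13980 and 16208 CPM in young ND and 11870, 14614 and 48371 CPM in old ND (0.45 ± 0.34, adjusted p = 0.469). In all 3 genes the highest mouse was old ND replicate 4.

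Complex IV has subunits that come in a form for most tissues and one for muscle, lung or testis, and hepatocytes held the common form. Cox4i1 had a mean of 343 CPM over the 24 mice and Cox4i2, the lung form, 0.012; Cox6a1 had 169 and Cox6a2, the muscle form, 0.0047; Cox6b1 had 162 and Cox6b2, the testis form, 0.112; Cox8a had 106 and the muscle form Cox8b 0.0838, with Cox8c at 0 counts in all mice. Cox7a2 had 98.8 CPM, its muscle form Cox7a1 1.07 CPM and Cox7a2l, which helps complexes III and IV join into supercomplexes, 72.1 CPM. Cox7a1 was highest in 1 old HFD mouse at 6.38 CPM, with a group median of 1.04 CPM there and 0.727 CPM in young ND.

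None of the 8 Ndufaf members passed in any of the 6 comparisons in the edgeR fit of all 24 mice with batch and TMM scaling. At most 3 had an unadjusted p under 0.05, with HFD in old mice, where 2990 of 13583 genes did. DESeq2 called Ndufaf1 with age on ND and Ndufaf3 with both factors, the latter called with RLE scaling too. Of 37 further assembly factors, 3 rose with HFD in old mice (1.37% of all genes) with and without old HFD replicate 2, among them Tmem126b, a factor of the complex I membrane arm (0.54 ± 0.13, adjusted p = 0.0231), and Ttc19 of complex III (0.45 ± 0.11, adjusted p = 0.0307). Without both mice that stood apart 2 rose, and Ttc19 did not pass (0.40, adjusted p = 0.0507). With age and HFD together 4 of these factors rose and 3 fell (17.3% and 12.9% of all genes), or 2 and 2 without old HFD replicate 2, among them Cox17, a copper chaperone of complex IV (1.08 ± 0.31, adjusted p = 0.0129), and Coa5 (-0.56 ± 0.09, adjusted p = 3.2e-04). Cox17 had a median of 12.7 CPM in young ND and 16.4 CPM in old HFD, where 1 mouse stood at 86.4 CPM, and its change without old HFD replicate 2 was 0.37 (adjusted p = 0.0232). Of 78 mitochondrial ribosomal protein genes, whose products translate the 13 mitochondrial messages, 3 rose with HFD in old mice (median 0.26 over all 78), beside 1.37% of all genes. With both factors 9 rose and 3 fell, beside 17.3% and 12.9% of all genes. Without old HFD replicate 2 these counts were 1, 2 and 4. Mrps14 (0.48 ± 0.13, adjusted p = 0.0398) and Mrpl47 (0.50 ± 0.14, adjusted p = 0.0444) rose in the first comparison, both calls being lost without that mouse (adjusted p = 0.0679 and 0.0856), and Mrpl18 rose (0.61 ± 0.17, adjusted p = 0.00923) and Mrpl38 fell (-0.38 ± 0.11, adjusted p = 0.0144) in the second. The median of all 78 with HFD in old mice was 0.11 without both mice that stood apart, beside 0.16 for the nuclear members, and 1 rose.

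Of 32 regulators of mitochondrial gene expression, 5 rose and 7 fell with age and HFD together, where 17.3% and 12.9% of all genes did, and without old HFD replicate 2 the counts were 3 and 6. The coactivator Ppargc1b rose (1.29 ± 0.30, adjusted p = 0.00358) and the transcription factor Yy1 fell (-0.55 ± 0.12, adjusted p = 0.00207). Of 21 further genes of electron carriers and coenzyme Q synthesis, Coq8a, a kinase-like protein needed to make coenzyme Q, fell with HFD in young mice (-0.73 ± 0.20, adjusted p = 0.0409) and with both factors (-0.79 ± 0.20, adjusted p = 0.0052), where Etfb, a subunit of the electron transfer flavoprotein, rose (0.76 ± 0.26, adjusted p = 0.0326). Etfb had a median of 89.8 CPM in young ND and 106 CPM in old HFD, where 1 mouse stood at 408 CPM, and its call was lost without old HFD replicate 2 (0.21, adjusted p = 0.198).

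Nuclear subunit genes are known targets of the nuclear respiratory factor NRF1, of ETS-type factors and of YY1. RefSeq promoter windows (GRCm38.p6, 250 bases before to 50 after the start) matched 73 of the 88 nuclear members. The NRF1 motif, GCGCA and GCGC with 1 base of any kind between them, on either strand, was found in 26% of these 73 genes against 5.19% of all 27025 genes with a window, the ETS motif CCGGAAG in 26% against 9.93%, and the YY1 motif AAGATGG in 16.4% against 7.28%. These letters can overlap other motifs, and a match is a description and not a bound site. Windows of 3 genes called with HFD in old mice are printed because between them they hold all 3 motifs. Capitals mark the matches, NRF1 in Ndufa5, NRF1 and ETS (on the opposite strand) in Atp5k, and YY1 in Ndufa3.
Ndufa5 (chr6:24527477-24527776, minus strand): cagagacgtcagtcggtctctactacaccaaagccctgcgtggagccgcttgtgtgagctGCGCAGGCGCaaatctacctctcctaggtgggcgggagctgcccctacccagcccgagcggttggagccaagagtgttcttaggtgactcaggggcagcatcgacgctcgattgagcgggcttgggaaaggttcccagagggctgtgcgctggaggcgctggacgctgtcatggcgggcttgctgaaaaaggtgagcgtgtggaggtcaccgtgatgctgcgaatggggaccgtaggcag
Atp5k (chr5:108434350-108434649, minus strand): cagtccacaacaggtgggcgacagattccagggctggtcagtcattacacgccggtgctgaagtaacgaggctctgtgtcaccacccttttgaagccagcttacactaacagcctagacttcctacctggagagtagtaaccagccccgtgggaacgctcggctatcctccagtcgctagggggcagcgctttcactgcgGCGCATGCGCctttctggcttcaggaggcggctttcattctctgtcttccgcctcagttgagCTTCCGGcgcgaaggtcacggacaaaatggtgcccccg
Ndufa3 (chr7:3617123-3617422, plus strand): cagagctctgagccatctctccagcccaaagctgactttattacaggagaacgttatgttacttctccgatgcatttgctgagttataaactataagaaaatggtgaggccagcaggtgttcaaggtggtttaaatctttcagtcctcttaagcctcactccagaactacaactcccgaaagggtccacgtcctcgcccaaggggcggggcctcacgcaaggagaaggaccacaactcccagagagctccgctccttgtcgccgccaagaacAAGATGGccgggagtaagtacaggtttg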

How the data were processed

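RNA was sequenced from hepatocytes of 24 male mice. The authors ran FastQC 0.11.8, aligned reads to mm10 with STAR 2.7.3a and counted them per gene with HTSeq 0.11.2, per the submitters' processing notes and the study's methods; the deposited count table holds raw counts of 55421 genes. The deposited FPKM table (37789 genes) holds values the authors adjusted for batch with ComBat; it was used as an alternative, as log2(FPKM + 1) with limma 3.58.1. The main test was edgeR 4.0.16 (R 4.3.3) with TMM scaling, filterByExpr, group and batch terms over all mice, and the quasi-likelihood test with Benjamini-Hochberg adjustment over 13583 genes; a call is an adjusted p under 0.05. Changes are log2 fold changes, with SE from the F statistic. A prior count of 2 entered log2 CPM of single mice.

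Total counts were 9200332 to 22185069 per mouse, so precision was lowest in old HFD. Groups came from the labels, and p-values measure the spread between mice. The same replicate number did not pair mice (mean correlation of deviations 0.18, and -0.05 with batch removed). DESeq2 1.42.0, RLE scaling, scaling on nuclear genes, no filter, no batch term, single batches, the 2 groups alone and leaving out each mouse were alternatives; the length trend (lowess, span 0.5) and leaving out both mice that stood apart were chosen after seeing the data. Named by rule were the mitochondrial members, up to 6 called members of lowest adjusted p per comparison, and the 2 nuclear members of highest mean FPKM per complex. Tissue isoforms with their partners, complex II, and the 2 of lowest adjusted p called per further list were named by rule too. The other members named were chosen after their values were seen. The members and lists were chosen with earlier results of these data known. The statistics were tested on simulated data.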

Additional observations from a re-analysis of the deposited data

Results flagged for a closer look

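For 33 named members, the nuclear and mitochondrial shares of counts and the nuclear median, groups of 6 mice were searched for a highest or lowest mouse whose gap to the nearest other, divided by the range of its group, passed Dixon's 95% critical value. Chance alone marks about 1 in 20 groups. Old HFD replicate 2 stood above its group in Atp5e (875 CPM, with the nearest mouse at 141 CPM), Ndufa2 (594 CPM), Ndufa5 (229.9 CPM), Atp5l (313 CPM), Uqcrh (487 CPM), Ndufa7 (192 CPM), Ndufc2 (198 CPM), Ndufb3 (121 CPM), Ndufc1 (113 CPM), Cox7c (341 CPM), Atp5k (274 CPM), Ndufb10 (201 CPM), Ndufa4 (644 CPM), Ndufa13 (339.5 CPM), Cox4i1 (788 CPM) and Sdhb (453 CPM), and in the share of counts on nuclear members (2.36%).

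Old ND replicate 4 stood above its group in the mitochondrial members mt-Co1 (114272 CPM), mt-Cytb (48371 CPM), mt-Nd1 (40432 CPM), mt-Nd2 (40324 CPM), mt-Nd5 (27067 CPM), mt-Nd4 (22410 CPM), mt-Nd6 (7988 CPM), mt-Co3 (363 CPM) and mt-Nd3 (34.1 CPM) and in the mitochondrial share (27%), and below it in Ndufa4 (119 CPM). The remaining cases were Atp5g2 (28.9 CPM, the lowest) and mt-Nd1 (11036 CPM) in young ND replicate 4, mt-Co2 (145 CPM) in young ND replicate 5, Ndufa7 (67.5 CPM) in young HFD replicate 3, and mt-Atp6 (442 CPM) and mt-Nd5 (9885 CPM) in young HFD replicate 5.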

How the results depend on the processing

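The count of members called moved with the method, and the cause was not tested. A count was taken as moved if it changed more than 1.5 times, or to or from 0. A median was taken as moved only if it shifted by at least the SD between mice. These rules are unlike, so whether counts or medians moved more was not judged. With no filter on low counts the count was 4 for HFD in young mice, 32 for HFD in old mice, 9 for age on ND, 18 for age on HFD and 11 for the interaction. Of all 32336 genes in those fits, 1473, 1108, 2053, 1235 and 587 were called, in the same order. With only the mice of the 2 groups compared, the count of members was 4, 0 and 7 for the first 3 of these comparisons and 6 for age and HFD together. No share over all genes is given for these fits. DESeq2 called 25 with HFD in old mice, 5 with age on ND and 2 with age on HFD. Batch 1 alone and batch 2 alone called 0 each with HFD in old mice, and 0 and 3 with both factors, where fewer mice entered. limma on log2(FPKM + 1) called 0 with HFD in old mice and 2 with both factors. Its mitochondrial medians were -0.10 for HFD in young mice, -0.31 for HFD in old mice, -0.22 for age on ND, -0.27 for age on HFD and -0.38 for both factors. There mt-Cytb (-0.36) and mt-Nd1 (-0.73) turned sign for age on ND. The FPKM of mt-Nd1 in young ND ran from 16136 to 370230, while its CPM ran from 6255 to 11036. The mitochondrial median was 0.84 in batch 2 for HFD in young mice, and -0.0056 in batch 1 and 1.53 in batch 2 for both factors. For age on ND, the length trend gave 2 calls and leaving out both mice that stood apart 1. Without the 10 genes with the most counts, the mitochondrial share was 9.11% in young ND and 11% in young HFD, since the total was smaller.

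With the replicate block in place of batch, 7 members were called with HFD in old mice (5 shared), 11 with both factors (10 shared) and 5 with age on ND (Ndufa9, Ndufaf1, Sdha, mt-Co3 and mt-Nd3). Leaving out 1 mouse at a time gave 0 to 22 calls with HFD in old mice, 0 to 7 with age on ND, 0 to 7 with age on HFD and 7 to 29 with both factors. RLE scaling, scaling on nuclear genes and the fit without batch kept these counts within 1.5 times of the main ones.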
